A study of Mus musculus with 2 samples.

Results

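Ifi202b/Rarb cells are thymic cells with little of the chemokine Ccl21a that carried transcripts of at least 2 of 6 marker genes: Ifi202b, Rarb, Nhs, Vit, Creb5 and Mill1. They were chosen from droplet single-cell RNA counts among cells with at least 500 genes, at least 1000 unique molecular identifiers (UMIs, each standing for 1 captured transcript) and at most 10% mitochondrial UMIs. A kept cell was a member when Ccl21a made up less than 0.8% of its UMIs, when it had a UMI in fewer than 3 of Dpp6, Fat3, Adamts18, Sulf1, Frmd4a, Zfp521 and Tenm4, and when it had 0 Aire UMIs. Of 7621 kept cells, 502 were members. The library labelled KO held 228 members among 3584 kept cells, and the library labelled WT held 274 among 4037. The counts of these genes chose the members, so their levels in members against other cells are given as a description, and so is any other gene set between members and other cells.

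The study asked how the transcription factor Foxp1 acts in thymic epithelial cells of mice. One library, labelled Foxp1 KO, came from Cre+ mice, and the other, labelled Foxp1 WT, from Cre- mice. The genotype field reads KO for both libraries, so the titles alone separate them. Both held live EpCAM+ cells sorted from thymi that had been dissociated with enzymes and enriched on a Percoll gradient. The sources used here do not give the promoter that drives Cre, the part of Foxp1 it deletes, or the age, sex and number of mice. With 1 library in each group no test between the groups was possible, so ratios are given as log2 values (KO over WT) with exact 95% intervals. These intervals cover counting error only. They do not cover the spread between animals, or the case in which a few cells hold most UMIs of a gene.

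Medullary thymic epithelial cells (mTECs) present self-antigens to developing thymocytes. Some mTECs secrete Ccl21a, which draws thymocytes into the medulla, others pass through a stage with the regulator Aire, and others, the mimetic cells, carry programmes of peripheral tissues such as tuft cells, skin or airway. Retinoic acid receptors are nuclear receptors that bind DNA at direct repeats of a short element. Proteins of the p200 family, to which Ifi202b belongs, are induced by interferon, and CREB family proteins bind the cyclic AMP response element.

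Promoter sequences of the marker genes are shown because Rarb and Creb5 each hold, close to the start, the element that their own protein family binds. Each window runs from 250 bases before the annotated start to 50 bases after it, 5′ to 3′ on the strand of the gene, from RefSeq on GRCm38.p6. The Rarb window lies at chr14:16575427-16575726 on the minus strand, at a start inside the annotated gene. The Creb5 window lies at chr6:53287053-53287352 on the plus strand, and the Ifi202b window at chr1:173982795-173983094 on the minus strand. Capitals mark the direct repeat in Rarb and the cyclic AMP response element in Creb5, and Ifi202b is shown without capitals because none of the motifs searched was found there.
Rarb: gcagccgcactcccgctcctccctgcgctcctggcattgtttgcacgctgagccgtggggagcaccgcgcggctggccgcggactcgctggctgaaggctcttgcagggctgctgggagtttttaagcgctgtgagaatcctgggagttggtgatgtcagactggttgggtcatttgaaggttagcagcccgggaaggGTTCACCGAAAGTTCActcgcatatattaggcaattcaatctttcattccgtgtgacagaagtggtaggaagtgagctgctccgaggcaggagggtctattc
Creb5: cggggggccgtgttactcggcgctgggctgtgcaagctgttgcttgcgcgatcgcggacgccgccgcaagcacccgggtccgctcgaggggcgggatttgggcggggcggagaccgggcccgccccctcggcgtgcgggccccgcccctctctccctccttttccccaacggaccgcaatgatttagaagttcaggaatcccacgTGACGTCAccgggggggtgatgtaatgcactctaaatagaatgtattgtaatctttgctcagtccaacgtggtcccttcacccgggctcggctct
Ifi202b: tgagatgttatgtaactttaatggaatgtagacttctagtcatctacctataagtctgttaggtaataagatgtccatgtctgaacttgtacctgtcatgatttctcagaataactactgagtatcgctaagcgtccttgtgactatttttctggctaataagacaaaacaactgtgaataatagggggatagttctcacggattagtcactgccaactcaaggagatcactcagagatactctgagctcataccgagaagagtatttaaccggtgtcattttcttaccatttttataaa
The direct repeat, searched as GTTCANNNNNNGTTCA on both strands, occurred as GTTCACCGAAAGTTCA from 52 to 37 bases before the Rarb start. It was found in 25 of 32851 promoters of the same length (0.0761%). The cyclic AMP response element TGACGTCA, which reads the same on both strands, lay 45 to 38 bases before the first Creb5 start and was found in 588 promoters (1.79%). An interferon-stimulated element, searched as GAAANNGAAA and present in 1131 promoters (3.44%), and a heat shock element, searched as GAANNTTCNNGAA and present in 198 (0.603%), had no match in these windows. These matches are a description of the letters and show no binding. Windows were found for 5 of the 6 marker genes, and Vit is named only. In the mm10 annotation Ifi202b lies at chr1:173962568-173982744 on the minus strand, Rarb at chr14:16430839-16819156 (minus), Nhs at chrX:161833296-162159730 (minus), Vit at chr17:78508064-78627408 (plus), Creb5 at chr6:53287270-53700376 (plus) and Mill1 at chr7:18245347-18266092 (plus), all of them protein-coding.

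The KO-labelled library had 25233944 UMIs over 4277 barcodes and the WT-labelled library 33120715 UMIs over 4957 barcodes. Kept cells had a median of 5097.5 UMIs in the KO-labelled library and 6267 in the WT-labelled library. The libraries shared 3 kept barcodes, none of them a member. Foxp1 itself was not lower in the KO-labelled library. Summed over members it had 688 UMIs, or 705 CPM (the gene's UMIs as counts scaled to a common total over those cells), in the KO-labelled library, with a Poisson 95% interval of 654 to 760 CPM. It had 588 UMIs, or 388 CPM (357 to 421), in the WT-labelled library. The log2 ratio was 0.86 [0.70, 1.02] in members and 0.63 in the remaining kept cells, those that were neither members, Dpp6/Fat3 cells nor Ccl21a-high cells. Because the deleted part is not given, UMIs counted over the whole gene do not check the labels, and groups are therefore called by label throughout.

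Members made up 6.36% [5.58, 7.21] of kept cells in the KO-labelled library and 6.79% [6.03, 7.61] in the WT-labelled library. The log2 ratio of these shares was -0.09 [-0.35, 0.17], so no difference was detectable in cells as sequenced. Cells were then thinned to 2000 UMIs before the rule was applied, which dropped all shallower cells. Dropped were 551 KO-labelled and 441 WT-labelled cells, among them 72 KO-labelled and 49 WT-labelled members. Among the thinned cells, members made up 5.87% of 3033 in the KO-labelled library and 7.29% of 3596 in the WT-labelled library. The log2 ratio was -0.31 [-0.60, -0.03]. The share was thus lower in the KO-labelled library among these deeper cells, beyond counting error. How far this came from equal depth and how far from the dropped cells was not tested. Members had little RNA: the median member held 2652.5 UMIs and 1360.5 genes in the KO-labelled library, against 3832.5 UMIs and 1842 genes in the WT-labelled library. The KO-labelled members ranged from 1030 to 20776 UMIs and the WT-labelled members from 1064 to 32567. This gap in depth runs with every share of cells with a UMI given here, so shares at equal depth are also given for Ifi202b and Rarb.

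Most members carried epithelial markers, while the pairing of Ifi202b with Rarb held for few of them. At least 3 of 8 pan-epithelial genes, such as the keratins Krt5 and Krt8 and the adhesion protein Epcam, had a UMI in 92.5% of KO-labelled and 97.8% of WT-labelled members. These genes do not separate mTECs from other epithelium, and endothelial cells held UMIs of Epcam and Krt5 too, as given below. Epcam itself had a UMI in 148 of 228 KO-labelled and 204 of 274 WT-labelled members. Of all kept cells, 2701 of 3584 KO-labelled and 3193 of 4037 WT-labelled ones had an Epcam UMI. Ifi202b and Rarb were both detected in 40 KO-labelled members (17.5%) and 48 WT-labelled members (17.5%). Ifi202b with Nhs was the more frequent pair, in 99 KO-labelled members (43.4%) and 139 WT-labelled members (50.7%). Members were also not 1 cluster. Clustering of all kept cells, which used the same genes that chose the members, spread them over several clusters, and the KO-labelled library had the smaller portion in the cluster led by Vit, Boc, Rarb, Nhs and Ifi202b.

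That cluster, number 8, held 81 KO-labelled members (35.5%) and 121 WT-labelled members (44.2%). A cluster led by the keratinocyte and airway genes Krt6a, Cnfn, Psapl1 and Bpifa1, number 1, held 41 KO-labelled members (18.0%) and 70 WT-labelled members (25.5%). Cluster 9, led by Adamts18, Gm42418 and BC034090 and low in UMIs, held 58 KO-labelled members (25.4%) and 19 WT-labelled members (6.93%). Cluster 9 is thus the one with a clear surplus of KO-labelled members, and its members had a median of only 1644.5 UMIs in the KO-labelled library and 2078 in the WT-labelled library. Cluster 9 as a whole was also larger in the KO-labelled library. It held 368 KO-labelled and 175 WT-labelled cells, of which 15.8% and 10.9% were members, so the surplus was not particular to members. The other 48 KO-labelled and 64 WT-labelled members lay in clusters led by other programmes. Among them were 4 KO-labelled and 11 WT-labelled members in a cluster led by the taste and tuft genes Tas2r105, Rgs21 and Gnat3, and 5 KO-labelled and 1 WT-labelled member in a cluster led by fibroblast genes. The names of clusters rest on this clustering, and with 1 library per group a library cannot be told apart from its genotype.

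**Figure D1:**
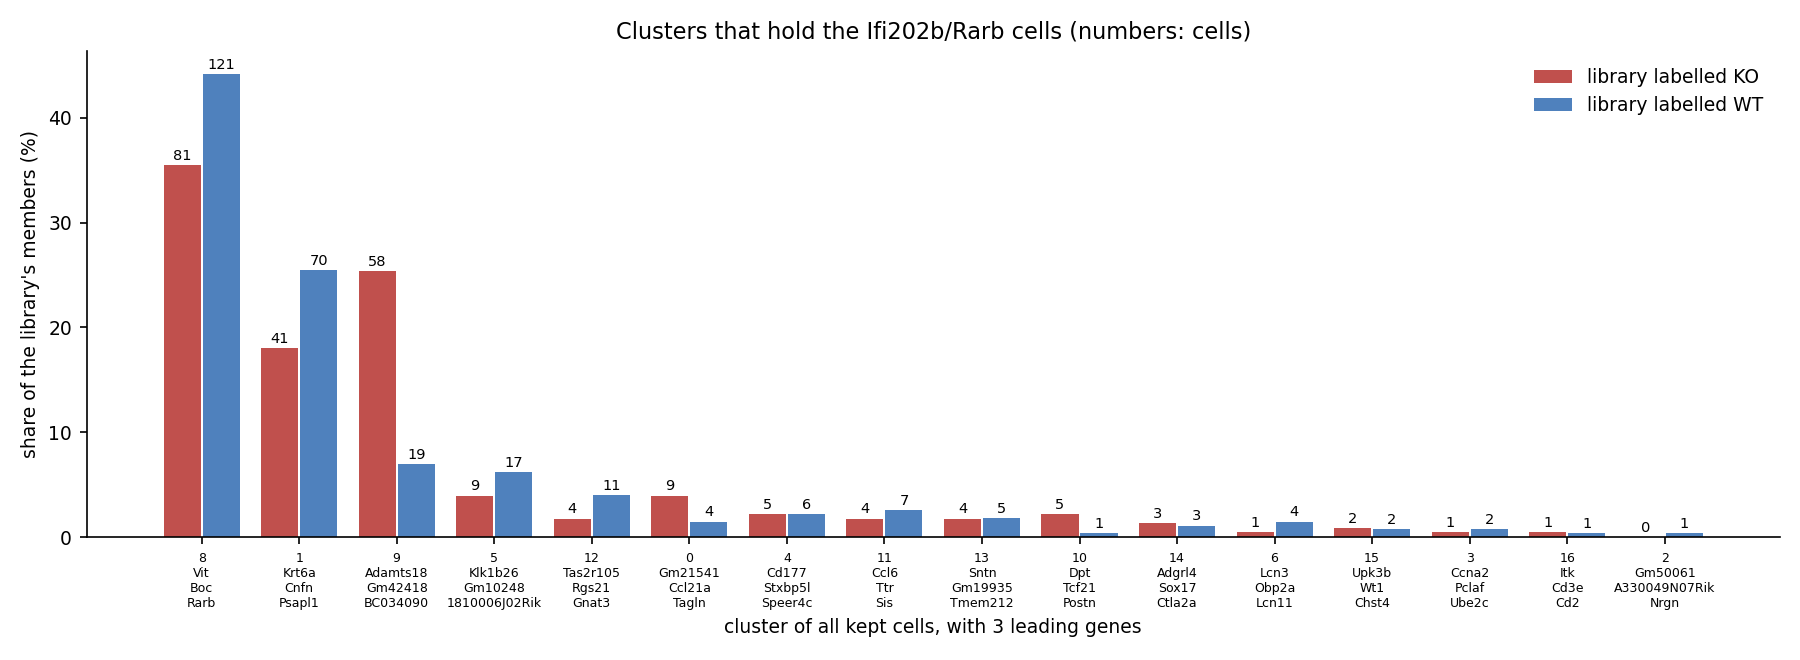
Bars give the share of each library's members (percent, vertical axis) that lay in each cluster of all kept cells (horizontal axis, cluster number), for the KO-labelled library on the left of each pair and the WT-labelled library on the right, with the number of members above each bar. Cluster 8 was the largest group in both libraries (35.5% of KO-labelled and 44.2% of WT-labelled members), and cluster 9 held 25.4% of KO-labelled members against 6.93% of WT-labelled members.

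Cluster 8 itself was mostly not made of members. It held 557 KO-labelled and 638 WT-labelled cells, of which 14.5% and 19.0% were members. Most of its other cells passed the marker limits of both groups: 294 KO-labelled cells (52.8%) and 376 WT-labelled cells (58.9%) had at least 2 of the 6 marker genes and also at least 3 of the 7 Dpp6/Fat3 genes. A cell with more of the 6 markers lay in cluster 8 more often. The clustering used these genes too, and Vit, Rarb, Nhs and Ifi202b lead the cluster. This order is therefore built into the method and is a description only. Of members with 2 markers, 36 of 145 KO-labelled cells (24.8%) and 41 of 139 WT-labelled cells (29.5%) were in it. Of members with at least 4, 20 of 31 KO-labelled cells (64.5%) and 40 of 51 WT-labelled cells (78.4%) were.

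At the edge of the rule, 145 KO-labelled and 139 WT-labelled members had exactly 2 markers. Just outside it, 333 KO-labelled and 312 WT-labelled cells met every other limit with 1 marker. For Ccl21a, 8 KO-labelled and 8 WT-labelled members lay between 0.6% and 0.8% of UMIs, and 11 KO-labelled and 9 WT-labelled cells lay between 0.8% and 1.0%. Ccl21a was therefore seldom near its limit, whereas the marker count and the Dpp6/Fat3 count cut through many cells. For Dpp6/Fat3 genes, 99 KO-labelled and 128 WT-labelled members had 2, and 143 KO-labelled and 170 WT-labelled cells just outside had 3.

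Of the markers, Ifi202b and Nhs were found in most members and Vit in the fewest. Ifi202b had a UMI in 67.5% [61.0, 73.6] of KO-labelled members and 78.5% of WT-labelled members. Nhs, the gene mutated in human Nance-Horan syndrome, had one in 67.1% of KO-labelled and 67.2% of WT-labelled members. Rarb, a retinoic acid receptor, had one in 34.6% [28.5, 41.2] of KO-labelled and 28.1% of WT-labelled members. Creb5, a basic leucine zipper protein of the CREB family, was found in 29.4% of KO-labelled and 30.7% of WT-labelled members. Mill1, an MHC class I-like protein, was found in 35.5% of KO-labelled and 50.4% of WT-labelled members. Vit, the matrix protein vitrin, was found in 20.6% of KO-labelled and 17.5% of WT-labelled members. After thinning to 2000 UMIs, which kept 156 KO-labelled and 225 WT-labelled members, Ifi202b was found in 51.3% of KO-labelled and 59.6% of WT-labelled members, and Rarb in 23.1% of KO-labelled and 17.8% of WT-labelled members. The order of the libraries for these genes thus did not change when depth was made equal.

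Free RNA can give UMIs in cells that lack a gene, so the same shares were taken in endothelial cells, defined by at least 4 of 8 endothelial markers. They numbered 254 in the KO-labelled library and 102 in the WT-labelled library, with medians of 4732.5 and 8147 UMIs, above those of members. Ifi202b had a UMI in 7.09% of KO-labelled and 16.7% of WT-labelled endothelial cells. Rarb had one in 4.72% of KO-labelled and 14.7% of WT-labelled endothelial cells. The rule asks for UMIs of these genes, so their higher shares in members say nothing of free RNA. Epithelial transcripts were also counted in endothelial cells, Epcam in 49.2% of KO-labelled and 52.9% of WT-labelled ones, Ccl21a in 41.3% and 43.1%, and Krt5 in 16.9% and 29.4%. How much of the members' UMIs was free RNA was not tested.

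**Figure D2:**
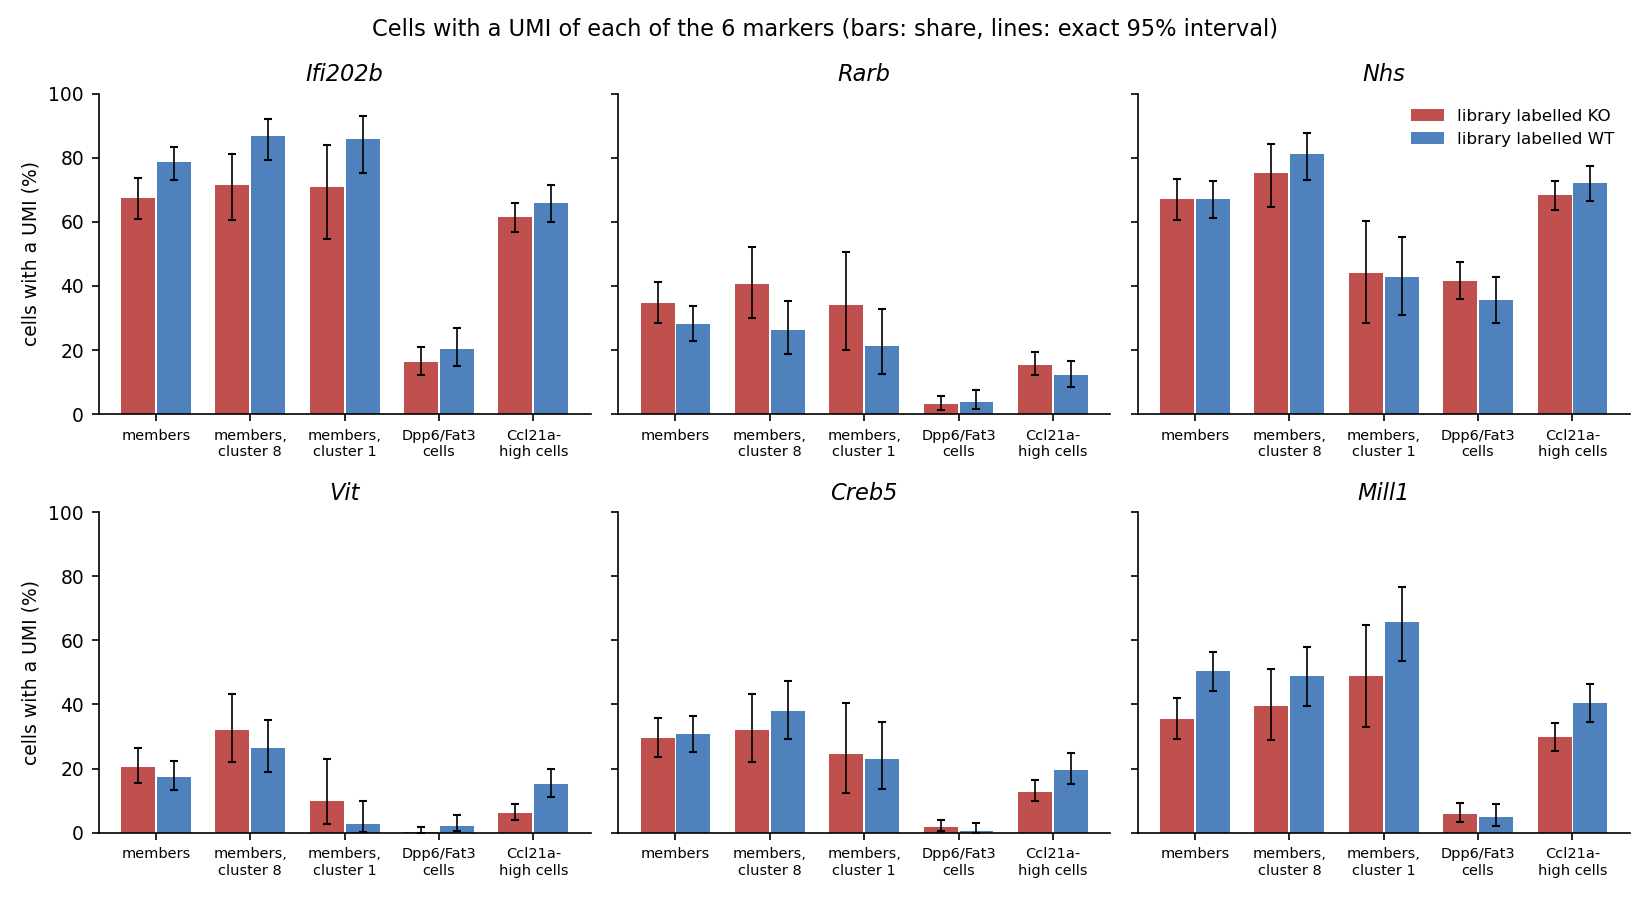
Each panel gives, for 1 marker gene, the percent of cells with at least 1 UMI (vertical axis) in members, in members of clusters 8 and 1, in Dpp6/Fat3 cells and in Ccl21a-high cells, with KO-labelled bars left of WT-labelled bars and lines for exact binomial 95% intervals. Ifi202b was also frequent in Ccl21a-high cells (61.4% in the KO-labelled and 65.9% in the WT-labelled library), while Rarb was found there in 15.5% and 12.2%, below its share in members of both libraries.

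The same markers differed in which neighbouring cells shared them. Dpp6/Fat3 cells, with at least 3 of the 7 Dpp6/Fat3 genes and fewer than 2 of the 6 markers, numbered 289 in the KO-labelled library and 186 in the WT-labelled library. Ccl21a-high cells, with Ccl21a at 0.8% of UMIs or more, numbered 438 in the KO-labelled library and 270 in the WT-labelled library. Both of these groups took a larger share of kept cells in the KO-labelled library, with log2 ratios of 0.81 [0.54, 1.08] and 0.87 [0.65, 1.09]. Ifi202b had 530 CPM in KO-labelled members and 418 CPM in KO-labelled Ccl21a-high cells, and 644 CPM and 554 CPM in those of the WT-labelled library. Rarb had 130 CPM in KO-labelled members and 53.4 CPM in KO-labelled Ccl21a-high cells, and 103 CPM and 23.9 CPM in those of the WT-labelled library. Ifi202b was thus nearly as abundant in Ccl21a-high cells, and Rarb was less so.

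Apart from the genes of the rule, the 12 genes that led members of cluster 8 over all other kept cells included Ifi204, Col6a2, Cdh3, Wwtr1 and Arid5a. The p200 gene Ifi204 had 345 CPM in KO-labelled members of cluster 8 and 46.8 CPM in other KO-labelled cells, and 329 CPM and 47.9 CPM in those of the WT-labelled library. Col6a2, a chain of collagen VI, had 345 CPM and 49.3 CPM in the KO-labelled library, and 304 CPM and 47.1 CPM in the WT-labelled library. Each of these genes was several times higher in members of cluster 8 of both libraries. Cdh3, which encodes P-cadherin, had 304 CPM and 48.2 CPM in the KO-labelled library, and 261 CPM and 45 CPM in the WT-labelled library. Wwtr1, the Hippo pathway coactivator TAZ, had 542 CPM and 79.5 CPM in the KO-labelled library, and 335 CPM and 59.1 CPM in the WT-labelled library. Arid5a, an RNA-binding protein, had 289 CPM and 39.1 CPM in the KO-labelled library, and 326 CPM and 49.1 CPM in the WT-labelled library. Antxr1, Rgma, Ltbp3, Ces1b, Cadm4 and Slfn8 were also among the 12 leading genes. Of these, Antxr1, Ces1b and Slfn8 also led cluster 8 as a whole, most of whose cells were not members. The other kept cells include those cells of cluster 8, whose levels were not taken separately. These genes were therefore not shown to be particular to members within the cluster.

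Against Dpp6/Fat3 cells, members of cluster 8 had more Ifi204, Ces1b, Skint3 and Sfn, and almost none of several genes such as Gnat3. Only 97 KO-labelled Dpp6/Fat3 cells (33.6%) and 70 WT-labelled ones (37.6%) lay in cluster 8 themselves. Skint3, of the family first found through epidermal T cell selection, had 309 CPM in KO-labelled members of cluster 8 and 58.3 CPM in KO-labelled Dpp6/Fat3 cells, and 350 CPM and 67.3 CPM in those of the WT-labelled library. Sfn, the epithelial 14-3-3 sigma protein, had 1170 CPM and 275 CPM in the KO-labelled library, and 1490 CPM and 352 CPM in the WT-labelled library. Gnat3, the taste and tuft cell G protein gustducin, had 0 UMIs in members of cluster 8 of both libraries, and 323 CPM in KO-labelled and 438 CPM in WT-labelled Dpp6/Fat3 cells. The Dpp6/Fat3 cells of cluster 8 had 1 Gnat3 UMI in the KO-labelled and 0 in the WT-labelled library, so nearly all Gnat3 UMIs lay in Dpp6/Fat3 cells of other clusters. Against these cells alone Ifi204 was still higher in members, at 82.7 CPM in KO-labelled and 98.4 CPM in WT-labelled Dpp6/Fat3 cells of cluster 8, and Skint3 stood at 37.6 CPM and 42.2 CPM there. Over all members, 3.23% of 6936 genes were at least 2-fold higher than in Dpp6/Fat3 cells in both libraries and 2.26% at least 2-fold lower. Against Ccl21a-high cells these percentages were 8.51% and 4.22% of 7983 genes, and against all other kept cells 2.94% and 11.7% of 16263 genes.

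Among the genes most clearly lower in members of cluster 8 than in Ccl21a-high cells were Sec61b, Ppia and subunits of the respiratory chain. Ppia, a cyclophilin, had 228 CPM in KO-labelled members of cluster 8 and 2200 CPM in KO-labelled Ccl21a-high cells, and 212 CPM and 1990 CPM in those of the WT-labelled library. Cox8a, a subunit of cytochrome oxidase, had 122 CPM and 1240 CPM in the KO-labelled library, and 120 CPM and 1170 CPM in the WT-labelled library. These genes moved with signs of RNA quality. Genes of ribosomal proteins took 3.53% of UMIs in KO-labelled members of cluster 8 and 14.8% in KO-labelled Ccl21a-high cells, and 3.61% and 13.6% in those of the WT-labelled library. Gm42418, a transcript that overlaps ribosomal RNA, took 8.85% and 1.83% in the KO-labelled library, and 8.67% and 1.94% in the WT-labelled library. Mitochondrial UMIs took 5.06% and 2.09% in the KO-labelled library, and 4.85% and 1.89% in the WT-labelled library. The part of this RNA make-up in the differences between members and Ccl21a-high cells was not tested.

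**Figure D3:**
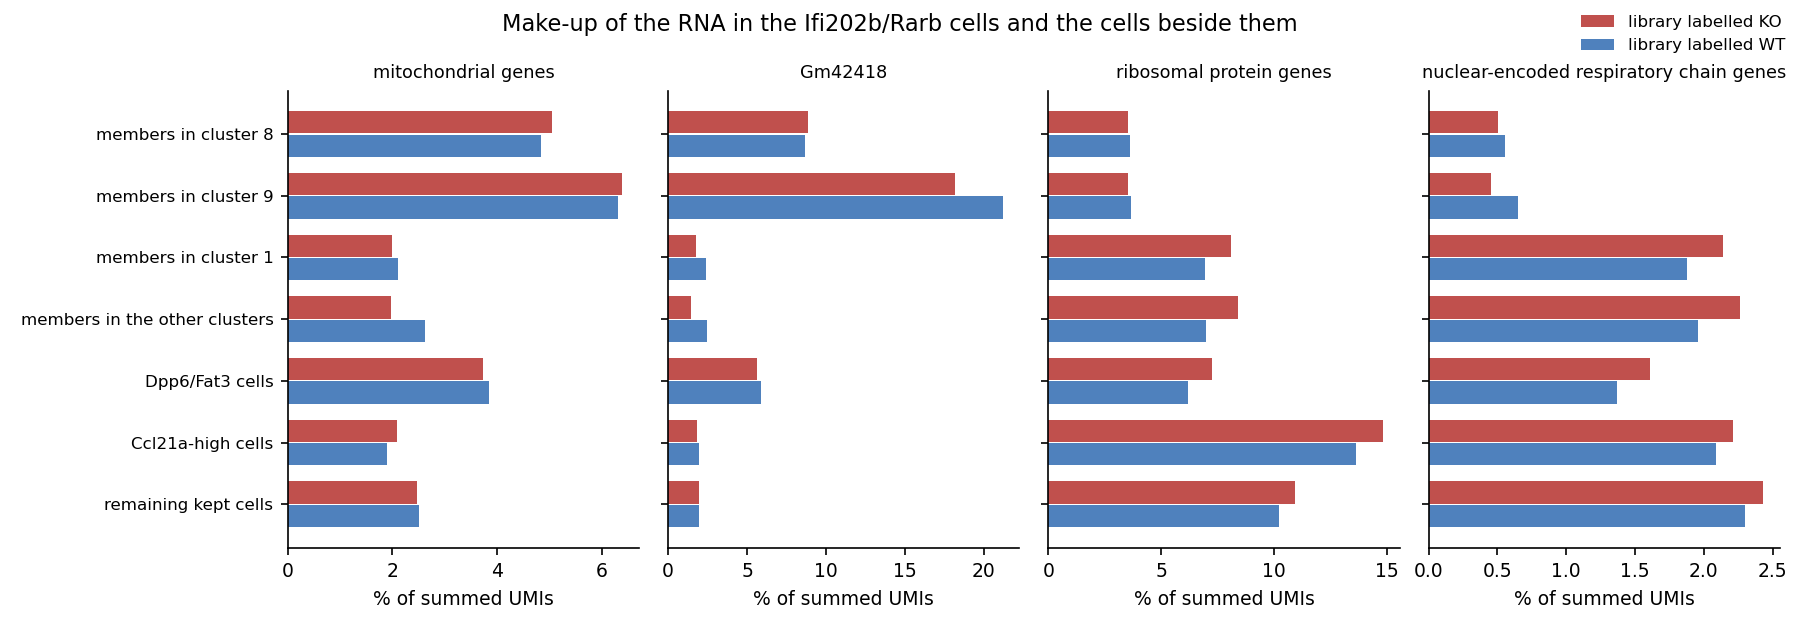
Bars give the percent of summed UMIs (horizontal axis) taken by Gm42418, mitochondrial genes, ribosomal protein genes and respiratory chain genes in 7 groups of cells, with the KO-labelled bar above the WT-labelled bar. Members of cluster 9 had the most Gm42418 (18.2% in the KO-labelled and 21.2% in the WT-labelled library), and members of cluster 8 had less ribosomal protein RNA (3.53% and 3.61%) than Ccl21a-high cells (14.8% and 13.6%).

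Members of cluster 1 carried another programme, of cornified and airway epithelium. Krt6a, a keratin of stratified and wounded epithelium, had 302 CPM in KO-labelled members of cluster 1 and 10.6 CPM in other KO-labelled cells, and 595 CPM and 15.3 CPM in those of the WT-labelled library. Spink5, the epidermal protease inhibitor mutated in human Netherton syndrome, had 1450 CPM and 75.3 CPM in the KO-labelled library, and 2450 CPM and 124 CPM in the WT-labelled library. Cyp2f2, a cytochrome P450 of airway club cells, had 590 CPM and 34.5 CPM in the KO-labelled library, and 494 CPM and 32.1 CPM in the WT-labelled library. Members of cluster 1 supplied most of the members' UMIs of these keratinocyte genes: 97.8% of Krt6a UMIs in KO-labelled and 98.5% in WT-labelled members, and 86.5% and 91.1% of Spink5 UMIs. Of the 6 markers, they carried Mill1 in 48.8% of KO-labelled and 65.7% of WT-labelled cells and Ifi202b in 70.7% and 85.7%.

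Between the libraries, most genes differed little within members, and a minority of those that did had most of their UMIs in 1 cell. Of 7748 genes with at least 50 UMIs over the members of both libraries, 173 (2.23%) were at least 2-fold higher in KO-labelled members and 237 (3.06%) at least 2-fold lower. The median log2 ratio over all of these genes was -0.02, and 52.3% were lower. Among the 173 higher genes, 44 had more than 50% of their UMIs in 1 cell, as had 43 of the 237 lower genes. The same share over all measured genes is not given here, so these counts are not a trait of the called genes. Within members of cluster 8, 1991 genes had 50 UMIs, and 25 (1.26%) were at least 2-fold higher and 49 (2.46%) at least 2-fold lower. The median there was -0.03.

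The 10 genes most clearly higher in KO-labelled members by counting error were nearly all of 1 cell. Pole2, a subunit of DNA polymerase epsilon, had 89 UMIs in KO-labelled and 3 in WT-labelled members, and 96.6% of the KO-labelled UMIs were in 1 cell. Myog, the muscle regulator myogenin, had 73 UMIs in KO-labelled and 2 in WT-labelled members, with 80.8% in 1 cell. Trf, which encodes transferrin, had 303 UMIs in KO-labelled and 38 in WT-labelled members, with 62.4% in 1 cell. B230312C02Rik, Mybpc1, 4933439K11Rik, Catsperd, Bco1, Klk1 and Zfp60 had 82.1% to 100% of their KO-labelled UMIs in 1 cell. These counts describe single cells and not the members.

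Of the 10 genes most clearly lower in KO-labelled members, Aunip, Cdh8, S100a9 and Krt6b were spread over more than 1 WT-labelled cell. Aunip, which encodes a protein that binds Aurora A kinase, had 1 UMI in KO-labelled and 217 in WT-labelled members, where they were spread over 13 cells with 49.3% in 1 cell. Cdh8, a cadherin of neurons, had 0 UMIs in KO-labelled and 105 in WT-labelled members, over 13 cells with 22.9% in 1 cell, which is at least 22.5-fold lower when set against a floor of 3 counts per library. S100a9, a calprotectin subunit of neutrophils and stressed epithelium, had 9 UMIs in KO-labelled and 417 in WT-labelled members, over 20 cells, a log2 ratio of -4.90 [-6.04, -3.96]. S100a9 had 23.2 CPM in KO-labelled and 547 CPM in WT-labelled members of cluster 1, so most of the gap lay in that cluster, and its log2 ratio in the remaining kept cells was 0.08. Pth, the parathyroid hormone gene, had 0 UMIs in KO-labelled and 140 in WT-labelled members, but 98.6% were in 1 cell. Gm38405, Mcpt2, Pyy, Gal and Gm45509 had 95% to 100% of their WT-labelled UMIs in 1 cell.

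Members of cluster 8 gave a shorter list. Cyyr1, a small membrane protein, had 6 UMIs in KO-labelled and 147 in WT-labelled members of cluster 8, a log2 ratio of -3.89 [-5.36, -2.74], and over all cells of cluster 8 the ratio was -2.41 [-2.78, -2.06]. Alpk2, an alpha kinase, had 6 UMIs in KO-labelled and 65 in WT-labelled members of cluster 8 (-2.71 [-4.21, -1.52]), and the ratio over all cells of cluster 8 was -1.90 [-2.30, -1.52]. Both differences were therefore also found in the cluster's other cells. Kcnip4 had 1 UMI in KO-labelled and 68 in WT-labelled members of cluster 8 (-5.36 [-10.7, -2.84]), and its ratio over all cells of cluster 8 was -2.52. In Ccl21a-high cells the ratios were -3.27 for Cyyr1, -1.67 for Alpk2 and -4.67 for Kcnip4, so these differences were not confined to the cluster. In the remaining kept cells they were 0.09 for Cyyr1, -0.67 for Alpk2 and -0.01 for Kcnip4. Cx3cr1, the receptor of fractalkine, had 4 UMIs in KO-labelled and 50 in WT-labelled members of cluster 8 (-2.92), but its ratio over all cells of cluster 8 was 0.01. Rere, a transcriptional corepressor, had 357 UMIs in KO-labelled and 150 in WT-labelled members of cluster 8 (1.97 [1.69, 2.26]), against 0.51 over all cells of cluster 8. A single cell held 66.7% of those KO-labelled Rere UMIs, and without the top cell of each library the ratio was 0.65.

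Among the 6 markers, Ifi202b and Mill1 were lower in KO-labelled members, and Nhs, Creb5 and Vit were higher. Since a UMI of these genes admitted a cell, the ratios are descriptions. Ifi202b had 517 UMIs (530 CPM, 485 to 578) in KO-labelled and 976 UMIs (644 CPM, 604 to 686) in WT-labelled members, a log2 ratio of -0.28 [-0.44, -0.13]. Ifi202b was lower as well over all cells of cluster 8 (-0.69 [-0.79, -0.60]) and in the remaining kept cells (-0.72). Mill1 had 134 CPM in KO-labelled and 185 CPM in WT-labelled members (-0.47 [-0.78, -0.16]), and within members of cluster 8 its ratio was -0.45. Rarb had 127 UMIs (130 CPM, 109 to 155) in KO-labelled and 156 UMIs (103 CPM, 87.4 to 120) in WT-labelled members, a log2 ratio of 0.34 [-0.01, 0.69]. Rarb differed more in members of cluster 8, at 309 CPM in KO-labelled and 154 CPM in WT-labelled cells (1.01 [0.45, 1.58]), and it was higher over all cells of cluster 8 (0.61 [0.39, 0.83]), in Ccl21a-high cells (1.16) and in the remaining kept cells (0.58). Rarb overlaps Top2b on the opposite strand, and whether the counting used strand is not stated, so UMIs of the pair may not be told apart. Nhs (0.39), Creb5 (0.41) and Vit (0.54) were higher in KO-labelled members. Within members of cluster 8 the ratio was 0.07 for Nhs, -0.09 for Creb5 and 0.43 [-0.24, 1.10] for Vit. Over all cells of cluster 8, Vit was lower (-0.49).

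Genes of retinoid signalling showed no common direction. Of 26 listed genes, 15 had at least 50 UMIs, 6 higher and 9 lower in KO-labelled members, with a median of -0.15, against -0.02 over all genes. Rarb, a gene of the rule, is 1 of the 6 higher genes. Fabp5, which carries fatty acids and retinoic acid, had 1470 CPM in KO-labelled and 1890 CPM in WT-labelled members (-0.36 [-0.45, -0.27]). At least 2-fold higher was 1 gene of the list, Rbp4, against 2.23% of all measured genes. Rbp4 had 48 UMIs in KO-labelled and 7 in WT-labelled members, with 93.8% of the KO-labelled UMIs in 1 cell. Aldh1a3, an enzyme that makes retinoic acid, had 13.3 CPM in KO-labelled and 25.7 CPM in WT-labelled members. Within members of cluster 8, 5 of these genes had 50 UMIs. Besides Rarb, Fabp5 was higher there, at 177 CPM in KO-labelled and 95.2 CPM in WT-labelled cells, and Nrip1, a corepressor induced by retinoic acid, was lower (-1.18).

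The p200 genes had no common direction. Of 8 with 50 UMIs, 3 were higher in KO-labelled members and 5 lower, and the median ratio was -0.12. Ifi213 had 33.8 CPM in KO-labelled and 16.5 CPM in WT-labelled members (1.04 [0.24, 1.85]). Aim2, a sensor of cytosolic DNA, had 44.1 CPM in KO-labelled and 79.8 CPM in WT-labelled members (-0.86), with 42.1% of the WT-labelled UMIs in 1 cell. Ifi204 had 138 CPM in KO-labelled and 117 CPM in WT-labelled members. Ifi202b belongs to this family and is also a gene of the rule. In members of cluster 8 it had 1220 CPM in KO-labelled and 1410 CPM in WT-labelled cells. Ifi204 had 345 CPM and 329 CPM there, and Ifi211 had 248 CPM and 304 CPM.

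Interferon-induced genes outside that family were more often higher, 12 of 18, with a median of 0.09 and none past 2-fold. Bst2, which tethers budding viruses, had 335 CPM in KO-labelled and 187 CPM in WT-labelled members (0.84 [0.61, 1.08]). Ifi27l2a had 2000 CPM in KO-labelled and 1380 CPM in WT-labelled members (0.54 [0.45, 0.63]). Neither kept this direction in members of cluster 8, where the log2 ratio was -0.46 for Bst2 and -0.09 for Ifi27l2a. Irf9, a subunit of the interferon-activated complex ISGF3, had 73.8 CPM in KO-labelled and 133 CPM in WT-labelled members (-0.85).

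Of 16 CREB and AP-1 family genes, 7 had the higher level in KO-labelled members, the median ratio was -0.06, and none passed 2-fold. Creb5, with the highest ratio of this list, is 1 of the 7 and also a gene of the rule. Fos, an immediate early AP-1 subunit, had 1920 CPM in KO-labelled and 1790 CPM in WT-labelled members. Atf2 had 90.2 CPM in KO-labelled and 112 CPM in WT-labelled members. Crem, which modulates responses to cyclic AMP, had 37.9 CPM in KO-labelled and 69.9 CPM in WT-labelled members (-0.88), with 49.1% of the WT-labelled UMIs in 1 cell.

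Heat shock genes were lower in KO-labelled members, and lower in the remaining kept cells too. In the joint list of immediate early and heat shock genes, 12 of 17 were lower, with a median of -0.29 (-0.41 in members of cluster 8). The interval lay below 0 for 11 of the 17, against 11.7% of all measured genes, and above 0 for 3, against 10.4%. None passed 2-fold. The 3 higher ones were Fos (0.10) and the early response genes Ier3, with 208 CPM in KO-labelled and 127 CPM in WT-labelled members (0.72), and Nr4a1, with 157 CPM in KO-labelled and 95.7 CPM in WT-labelled members (0.71). Hspa1a, an inducible chaperone of the HSP70 family, had 401 CPM in KO-labelled and 695 CPM in WT-labelled members (-0.80 [-0.97, -0.63]). Its close copy Hspa1b had 531 CPM in KO-labelled and 942 CPM in WT-labelled members (-0.83 [-0.98, -0.68]). Reads may be split between these near-identical genes, so neither value stands alone. Dnajb1, a cochaperone of HSP70, had 235 CPM in KO-labelled and 423 CPM in WT-labelled members (-0.85 [-1.07, -0.63]). In the remaining kept cells the log2 ratios were -1.05 for Hspa1a, -1.13 for Hspa1b and -0.78 for Dnajb1, so this difference was not particular to members. Hspa8, Hspb1 and Hsp90aa1 had ratios of -0.70, -0.60 and -0.38 in members.

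**Figure D4:**
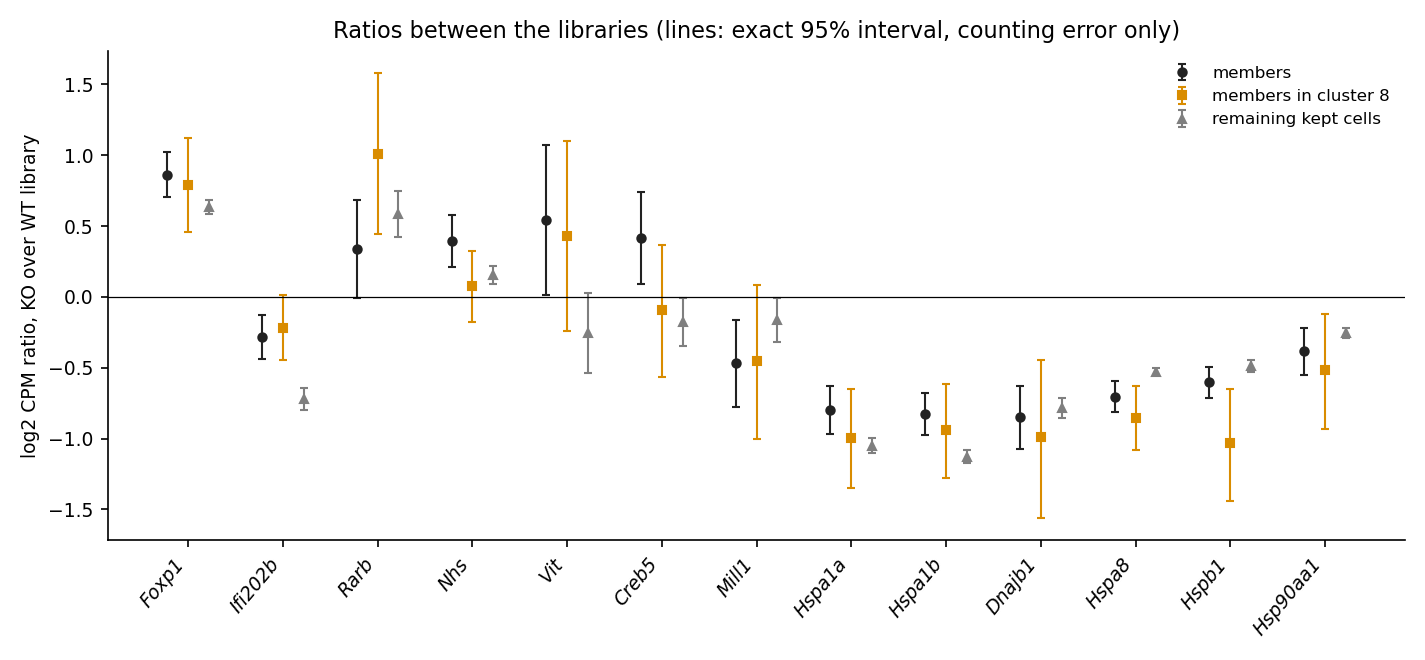
Points give the log2 ratio of CPM, KO-labelled over WT-labelled (vertical axis), for Foxp1, the 6 marker genes and 6 heat shock genes in members, in members of cluster 8 and in the remaining kept cells, with lines for exact 95% intervals from counts. Foxp1 lay above 0 in all 3 groups of cells and the heat shock genes below 0, while Ifi202b was below 0 and Rarb above 0 in the remaining kept cells too (-0.72 and 0.58).

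Matrix genes were higher in KO-labelled members but not in those of cluster 8. Of 16 with 50 UMIs, 11 were higher and 5 were not, the median ratio was 0.52, and 2 were at least 2-fold higher, against 2.23% of all measured genes. In members of cluster 8, 3 of 9 were higher, with a median of -0.60. Mgp, an inhibitor of calcification, had 164 CPM in KO-labelled and 61.4 CPM in WT-labelled members (1.42 [1.04, 1.80]), but its ratio was -0.65 in cluster 8. Sparc, a collagen-binding glycoprotein, had 85.1 CPM in KO-labelled and 42.2 CPM in WT-labelled members (1.01), and its ratio was -0.54 in cluster 8. Fibroblast markers were higher in the same members. Their 8 genes summed to 416 CPM in KO-labelled and 77.9 CPM in WT-labelled members, and to 40.5 CPM and 61.4 CPM in members of cluster 8, with Lum and Dpt at 0 in WT-labelled members. The part of fibroblast RNA or fibroblasts in the matrix values was not tested.

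Tnc was lower in members and in cluster 8 alike. It encodes the matrix protein tenascin C and had 418 CPM in KO-labelled and 705 CPM in WT-labelled members (-0.75 [-0.92, -0.59]), and 573 CPM and 903 CPM in members of cluster 8 (-0.66). Adhesion genes of basal epithelium were balanced, with 8 of 14 higher and a median of 0.01. Cd9, a tetraspanin, was higher at 0.42, Cd44, a hyaluronan receptor, was lower at -0.34, and Itga6, a laminin receptor subunit, had 382 CPM in KO-labelled and 338 CPM in WT-labelled members.

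Keratins were mostly lower in KO-labelled members, 10 of 13, with a median of -0.22. Krt17, of basal and stressed epithelium, had 2110 CPM in KO-labelled and 3260 CPM in WT-labelled members (-0.63 [-0.70, -0.55]). Krt6a had 95.4 CPM in KO-labelled and 225 CPM in WT-labelled members (-1.24), and within members of cluster 1, which held nearly all of its UMIs, it had 302 CPM in KO-labelled and 595 CPM in WT-labelled cells (-0.98 [-1.33, -0.64]). Krt19, of simple epithelium and mesothelium, had 295 CPM in KO-labelled and 125 CPM in WT-labelled members (1.24 [0.97, 1.52]), but only 10.1 CPM and 9.21 CPM in members of cluster 8. The mesothelial list, which holds Krt19, summed to 789 CPM in KO-labelled and 364 CPM in WT-labelled members, and all 5 of its measured genes were higher. In members of cluster 8 it summed to 117 CPM in the KO-labelled and 129 CPM in the WT-labelled library, and the part of mesothelial cells in these values was not tested.

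Genes linked to epithelial progenitors were higher in 9 of 14 cases, with a median of 0.12. Igfbp5, which binds insulin-like growth factors and marks Ccl21a-expressing mTECs, had 403 CPM in KO-labelled and 183 CPM in WT-labelled members (1.14 [0.91, 1.36]). Ly6a, also known as Sca-1, had 1010 CPM in KO-labelled and 555 CPM in WT-labelled members (0.87 [0.73, 1.0]). In members of cluster 8 both had the opposite sign, -0.37 for Igfbp5 and -0.28 for Ly6a. Ly6d had 1010 CPM in KO-labelled and 1390 CPM in WT-labelled members (-0.46).

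Genes of antigen presentation by MHC class II were more often lower in KO-labelled members than not, by small ratios. Of 11 genes, 7 were lower, against 52.3% of all measured genes. The interval lay below 0 for 4 of them, against 11.7% of all measured genes. The median was -0.17 (-0.50 in members of cluster 8, where none of 5 was higher). Cd74, the invariant chain, had 3490 CPM in KO-labelled and 4010 CPM in WT-labelled members (-0.20 [-0.26, -0.14]), and 3020 CPM and 4010 CPM in members of cluster 8 (-0.41). H2-Eb1, a class II beta chain, had 1040 CPM in KO-labelled and 1370 CPM in WT-labelled members (-0.39), and its ratio in cluster 8 was -0.64. Class I genes were balanced, with 7 of 12 higher, a median of 0.02 and H2-K1 at 3620 CPM in KO-labelled and 3650 CPM in WT-labelled members. Genes of the NF-kB pathway that mTECs need were lower in 10 of 15 cases, with a median of -0.27. Nfkb2, its precursor subunit, had 72.8 CPM in KO-labelled and 99 CPM in WT-labelled members (-0.44).

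Of 9 chemokines, 7 were higher in KO-labelled members, with a median of 0.09, and of 5 cytokines 2 were higher. The ratio farthest from 0 was that of Ccl20, a ligand of Ccr6, with 90.2 CPM in KO-labelled and 168 CPM in WT-labelled members (-0.89 [-1.26, -0.54]) and 40.6% of the WT-labelled UMIs in 1 cell. Ccl21a, limited by the rule, had 1180 CPM in KO-labelled and 1020 CPM in WT-labelled members. Ccl19, the other ligand of Ccr7, had 210 CPM in KO-labelled and 152 CPM in WT-labelled members (0.47). Il7, the survival factor of early thymocytes, had 86.1 CPM in KO-labelled and 58.1 CPM in WT-labelled members (0.57).

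Regulators of mTEC genes were evenly divided in members, 6 higher and 6 lower, with a median of -0.03, whereas in members of cluster 8, 5 of 7 were higher and the median was 0.50. Foxp1, the gene of the labels, had the highest ratio of this list in members (0.86) and is counted as higher in both groups of cells. Fezf2, which drives tissue-restricted genes in mTECs, had 122 CPM in KO-labelled and 148 CPM in WT-labelled members (-0.28 [-0.62, 0.04]). Sirt1, a deacetylase that acts on Aire, had 99.5 CPM in KO-labelled and 192 CPM in WT-labelled members (-0.95 [-1.30, -0.61]), with ratios of -1.17 in cluster 8 and -0.46 in the remaining kept cells. Ubd, of the Aire-stage list, had 338 CPM in KO-labelled and 649 CPM in WT-labelled members (-0.94), and -1.75 in cluster 8. Prkdc had a ratio of -1.25 in members and 0.95 in cluster 8, and 46.8% of its WT-labelled UMIs were in 1 cell.

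Transcription factors of epidermal and pharyngeal epithelium had no common direction over all members. Of 16 measured, 7 were higher, and the median ratio was -0.24, whereas in members of cluster 8, 7 of 8 were higher and the median was 0.45. Pax1, a factor of the thymus primordium, had 59.5 CPM in KO-labelled and 31.7 CPM in WT-labelled members (0.91 [0.33, 1.49]), and 157 CPM and 67.6 CPM in members of cluster 8 (1.22 [0.38, 2.08]). In the remaining kept cells the ratio was -0.01 for Pax1. Gata3 had 20.5 CPM in KO-labelled and 44.2 CPM in WT-labelled members (-1.11), and Klf4 had 391 CPM in KO-labelled and 477 CPM in WT-labelled members.

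Signalling pathways differed among themselves. For Wnt, 2 of 9 genes were higher (median -0.23), and Tcf7l1, a repressor of Wnt targets, had a ratio of -0.66. For Notch, 3 of 9 were higher (median -0.10), with Maml2, a coactivator, at 0.37 and Rbpj, the DNA-binding partner of Notch, at -0.40. For TGF-beta and BMP, 9 of 15 were higher (median 0.10) and 3 were at least 2-fold higher, against 2.23% of all measured genes, the receptors Bmpr1b (1.18) and Tgfbr2 (1.02) and the latent TGF-beta binding protein Ltbp1 (1.06). In members of cluster 8, 2 of 6 were higher and the median was -0.42. Id3, an inhibitor of basic helix-loop-helix factors, had 264 CPM in KO-labelled and 210 CPM in WT-labelled members but 127 CPM and 246 CPM in members of cluster 8. For FGF and EGF, 7 of 11 were higher (median 0.07), with Spry2, a feedback inhibitor, at 1.04 in members and -1.86 in cluster 8. Of cell cycle genes 3 were measured, among them Cdkn1a, the p21 inhibitor, with 365 CPM in KO-labelled and 678 CPM in WT-labelled members (-0.89).

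**Figure D5:**
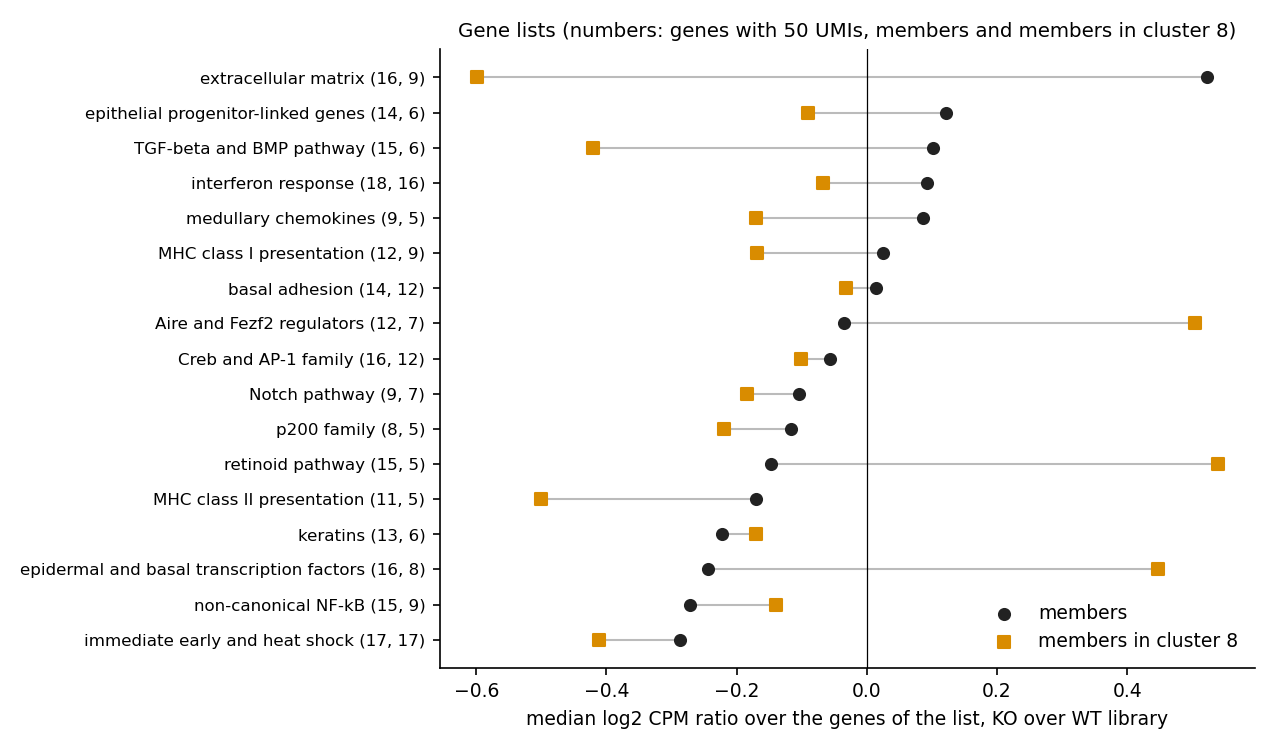
Each row gives a gene list, and the horizontal axis the median log2 ratio, KO-labelled over WT-labelled, of its genes with at least 50 UMIs, in members (circles) and in members of cluster 8 (squares). The matrix list lay at 0.52 in members and -0.60 in cluster 8, and the epidermal factors at -0.24 and 0.45, so the medians of pooled members and of cluster 8 differed in sign for both.

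Among lists of other mTEC programmes, tuft genes were lower in KO-labelled members, 5 of 5, with a median of -1.10. Avil, which encodes advillin, had 22 UMIs in KO-labelled and 126 in WT-labelled members, and Pou2f3, the tuft cell master regulator, had 30 in KO-labelled and 100 in WT-labelled members. These UMIs were gathered in few cells: 4 KO-labelled and 21 WT-labelled members had at least 3 of 8 tuft markers. The lower levels were not particular to members. In Dpp6/Fat3 cells the log2 ratios were -1.11 for Avil and -0.99 for Pou2f3, and in the remaining kept cells -0.615 and -0.485. In Ccl21a-high cells they were 0.16 for Avil and -0.82 for Pou2f3. Keratinocyte genes were divided, 4 higher and 3 lower, with Sbsn at -0.80, Ivl at -2.12, Krtdap at 0.41 and Calm4 at 0.66. Of microfold genes 4 of 7 were higher and Spib, their regulator, was at -1.27, and of ciliated genes 2 of 4 were higher and Foxj1 was at -0.80. Neuroendocrine genes gave 1 higher gene of 4, Scg2, with 80.4% of its KO-labelled UMIs in 1 cell. Of 4 cortical genes 2 were higher, and Psmb11, the defining proteasome subunit of cortical epithelium, had 1 UMI in KO-labelled and 0 in WT-labelled members. Markers of thymocytes and B cells were scarce in members. Thymocyte genes summed to 15.4 CPM in KO-labelled and 15.2 CPM in WT-labelled members, and B cell genes to 24.6 CPM and 29.0 CPM. Myeloid genes summed to 214 CPM and 263 CPM, near the 219 CPM and 212 CPM of Dpp6/Fat3 cells. They summed to 36.4 CPM and 51.3 CPM in Ccl21a-high cells, and to 738 CPM and 707 CPM in the remaining kept cells. At least 2 myeloid markers had a UMI in 13 KO-labelled and 24 WT-labelled members. Pericyte genes summed to 430 CPM in KO-labelled and 436 CPM in WT-labelled members.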

How the data were processed

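The authors deposited filtered matrices of UMI counts per gene and cell for 2 libraries, 1 per group. Per the file headers they were made with Cell Ranger 7.0.1. The submitters' processing notes also name Seurat and the mm10 build, with no roles or order. Counts were used as deposited, with no batch correction. The cell filter asked for 500 genes, 1000 UMIs and no more than 10% of UMIs from mitochondrial genes.

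Counts were summed over cells and given as CPM, so a gene's level in a library weighs cells by their UMIs. Ratios between libraries carry exact conditional binomial 95% intervals, shares Clopper-Pearson intervals and counts Poisson intervals. Cells were clustered by the Leiden method (3000 variable genes, 30 components, 15 neighbours, resolution 1) with scanpy 1.11.5 and igraph 0.11.9. A gene counted as measured at 50 UMIs over both libraries' members, and 2-fold was the limit for counts of genes. Doublets were not removed, since the caller marked none; the cells with the highest scores were left out as an alternative. Strand use in counting is not given in the sources used here, so antisense and overlapping genes, which the intervals ignore, may share UMIs, among them Rarb (with Top2b), Nhs and Foxp1.

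The members and gene lists were chosen with earlier results of these data known. Genes set to be named were the rule's genes with Foxp1 and Fezf2, and up to 4 genes of each list. The 10 genes most clearly higher and the 10 most clearly lower by interval were added, with Xist, Y-linked, mitochondrial and ribosomal genes left out of the ranking. So were the 12 leading genes of members over Dpp6/Fat3 cells and over all other kept cells, of which only some are given here. The leading genes of cluster 8 and cluster 1 members, and Nrip1, Ifi204, Ifi211, Ier3, Nr4a1, Hspa8, Hspb1, Hsp90aa1, Lum, Dpt, Krt5, Krt8 and Psmb11, were named after their values were seen. Some genes that the rule names are not reported here. Coordinates are from GENCODE M21 and RefSeq GRCm38.p6, which share the mm10 coordinates.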

Additional observations from a re-analysis of the deposited data

Results flagged for a closer look

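The level of Aunip, summed from few cells, went in opposite directions in the 2 groups of cells compared. Its log2 ratio, KO-labelled over WT-labelled, was 2.54 [1.88, 3.27] in Dpp6/Fat3 cells, at 131 CPM in KO-labelled and 22.4 CPM in WT-labelled cells. In members it was -7.13 [-12.4, -4.63], from 1 UMI in KO-labelled and 217 UMIs in WT-labelled members, and in the remaining kept cells -2.03, at 67.8 CPM in KO-labelled and 277 CPM in WT-labelled cells. The difference between Dpp6/Fat3 cells and members was not tested, and 49.3% of the WT-labelled UMIs in members were in 1 cell. Among Dpp6/Fat3 cells, only 2.42% of KO-labelled and 3.23% of WT-labelled cells had an Aunip UMI. The share of cells with a UMI was thus not higher in the KO-labelled library there, and the higher level rested on few cells.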

How the results depend on the processing

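The log2 ratio of the share of members was below 0 under every alternative run, and these runs reuse the same cells. In most runs it lay from -0.22 to -0.05 with an interval that included 0, as in the main analysis. The interval lay below 0 when cells under 2000 UMIs were dropped and the rest thinned to 2000 UMIs (-0.31 [-0.60, -0.03]). With at least 3 markers it did so too (-0.53 [-0.94, -0.13], at 2.32% in the KO-labelled and 3.34% in the WT-labelled library). For members of cluster 8, chosen after seeing the data, the ratio was -0.41 [-0.83, 0.01]. Genes at least 2-fold higher and lower numbered 478 and 572 at 20 UMIs per gene, 22 and 55 at 200 UMIs, 554 and 774 at 1.5-fold, 25 and 49 in members of cluster 8, and 65 and 186 when each gene's top cell was left out. Of the higher and lower genes so called, the main analysis shared 63 and 134 without the top cell, 8 and 10 in cluster 8, and 42 of 121 and 66 of 224 with at least 3 markers. Against other cells, members of cluster 8 had 583 genes lower than Dpp6/Fat3 cells (157 for all members), and 406 higher and 1009 lower than Ccl21a-high cells (679 and 337 for all members). Lists with a median above 0 numbered 17 of 37, 11 with equal weight per cell and 5 of 32 in cluster 8, where the mesothelial list, with 1 gene, had -0.20. Among named genes with a ratio in both analyses, 127 of 144 kept their sign with at least 3 markers, 132 of 146 without cells bearing other types' markers, 142 of 147 without the top cell and 81 of 128 in cluster 8. Those at least 2-fold apart in all members that changed sign were, with at least 3 markers, Gm45509 (1.04), Scg2 (-2.13), Krt4 (-1.55) and Prkdc (0.37), without cells bearing other types' markers, Klk1 (-3.51), Scg2 (-2.43) and Col3a1 (-2.43), and, without the top cell, Cdkn1c (-0.18) and Zfyve9, where the log2 ratio of Zfyve9 was -0.0615. In cluster 8 they were Gm45509 (0.72), Igfbp5 (-0.37), Tbata (0.72), Avil (0.40), Pou2f3 (0.72), Dcn (-0.28), Col3a1 (-2.08), Mgp (-0.65), Sparc (-0.54), Prkdc (0.95) and Spry2 (-1.86). The cause was not tested. No paired analysis was possible because each group has 1 library. Leaving out a replicate was impossible for the same reason, and depth limits every gene under 50 UMIs.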
